A study of Homo sapiens with 12 samples.

Results

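The linker histone H1 genes were followed in 2 human mantle cell lymphoma lines after silencing of cyclin D1. The 6 genes HIST1H1A, HIST1H1B, HIST1H1C, HIST1H1D, HIST1H1E and H1FX were chosen by symbol, out of 23617 symbols in the Granta-519 table and 23615 in the JeKo-1 table, and each stood on 1 row per table. Granta-519 and JeKo-1 are cultured B-cell lymphoma lines that make cyclin D1, the product of CCND1. The groups were Granta-519 shCycD1, Granta-519 shCtrl, JeKo-1 shCycD1 and JeKo-1 shCtrl, with 3 libraries each. shCycD1 cells carried a lentiviral shRNA against cyclin D1 and shCtrl cells a lentiviral control shRNA, and all cells had been selected with puromycin. The labels state neither the time after infection nor the shRNA sequence. Per the labels Granta-519 was grown in RPMI and JeKo-1 in DMEM, so line and medium cannot be told apart. The series design calls the 3 libraries of a group biological replicates.

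Linker histones bind the DNA that enters and leaves a nucleosome and help to compact chromatin. HIST1H1A, HIST1H1B, HIST1H1C, HIST1H1D and HIST1H1E lie in the histone gene cluster of chromosome 6 and are replication-dependent, which means that they are transcribed mainly in S phase into mRNAs that end in a stem-loop and not in a poly(A) tail. Some of them, HIST1H1C among them, are also known to give polyadenylated mRNA in cells that have left the cycle. H1FX on chromosome 3 is a replacement gene, polyadenylated and not tied to S phase. All 6 genes lack introns. Library preparation used a stranded mRNA kit of a type that selects poly(A) RNA, so stem-loop mRNAs are captured poorly. How much of each value comes from either form was not tested.

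HIST1H1B, HIST1H1C, HIST1H1D and HIST1H1E share 3 promoter motifs, and the stretches before the gene start are shown because these genes did not all move the same way. RefSeq (GRCh38.p14) gave a promoter for all 6 genes. The last 150 bases before each start follow, 5′ to 3′, with 3 motifs in capitals wherever found on either strand: AAACACA (the H1 box), CCAAT, and a TATA element spelled TATATA or TATAAA.
HIST1H1C promoter, minus strand, chr6:26056471-26056620: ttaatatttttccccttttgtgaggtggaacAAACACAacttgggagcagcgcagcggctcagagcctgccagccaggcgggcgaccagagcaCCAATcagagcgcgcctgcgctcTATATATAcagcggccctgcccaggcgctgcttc
HIST1H1D promoter, minus strand, chr6:26234988-26235137: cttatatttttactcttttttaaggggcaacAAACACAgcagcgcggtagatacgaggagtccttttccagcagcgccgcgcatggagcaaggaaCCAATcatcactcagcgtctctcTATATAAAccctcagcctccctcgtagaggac
HIST1H1E promoter, plus strand, chr6:26156179-26156328: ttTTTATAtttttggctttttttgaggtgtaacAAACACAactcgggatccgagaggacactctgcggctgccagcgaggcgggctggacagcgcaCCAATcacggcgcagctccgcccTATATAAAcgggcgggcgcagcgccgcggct
HIST1H1B promoter, minus strand, chr6:27867589-27867738: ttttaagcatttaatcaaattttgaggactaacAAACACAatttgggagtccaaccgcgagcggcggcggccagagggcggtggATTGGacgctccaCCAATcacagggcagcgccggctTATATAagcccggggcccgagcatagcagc
HIST1H1A promoter, minus strand, chr6:26017788-26017937: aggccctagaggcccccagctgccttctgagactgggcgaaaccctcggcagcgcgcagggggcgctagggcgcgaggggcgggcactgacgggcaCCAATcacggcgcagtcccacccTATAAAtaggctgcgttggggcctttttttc
H1FX promoter, minus strand, chr3:129316287-129316436: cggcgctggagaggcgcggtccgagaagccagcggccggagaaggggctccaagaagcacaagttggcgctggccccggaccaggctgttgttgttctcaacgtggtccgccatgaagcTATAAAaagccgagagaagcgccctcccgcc
HIST1H1B, HIST1H1C, HIST1H1D and HIST1H1E held all 3 motifs. In HIST1H1C and HIST1H1D the H1 box ran from -119 to -113, counted from the base before the start as -1, and in HIST1H1B and HIST1H1E from -117 to -111. The CCAAT nearest the start lay between -57 and -49 in these 4 genes, and the TATA element nearest the start between -34 and -24. HIST1H1E held a further TATAAA on the minus strand (-148 to -143), before the H1 box, and HIST1H1B a further CCAAT on the minus strand (-66 to -62). HIST1H1A held CCAAT (-54 to -50) and TATAAA (-31 to -26) without the H1 box in this window, and H1FX held TATAAA alone (-31 to -26). Of 35116 RefSeq promoter windows of the same length, 2.71% held AAACACA, 23.5% held CCAAT, 8.06% held TATATA or TATAAA and 0.0883% (31 windows) held all 3. TATATA reads the same on both strands and can overlap TATAAA.

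CCND1 was lower in every shCycD1 library, with log2 changes of -1.83 in Granta-519 and -2.38 in JeKo-1. All 8 B-cell and mantle cell lymphoma markers were measured above the testing minimum in both lines. Beside CCND1, CD22 (1.83), CD79B (0.67) and SOX11 (-0.67) were called in JeKo-1. The 6 T and NK cell markers summed to at most 2.85 RPKM in any library, and CD3G was called higher in JeKo-1 (0.28). The others were not tested there: CD2, CD3D and CD3E averaged lower in shCycD1 than in shCtrl, and NKG7 and GNLY higher. RPKM is a read count scaled to the length of the gene and the size of the library, as the authors made it. The 6 myeloid markers summed to 38.8 to 45.6 RPKM in Granta-519 shCycD1 and 45.4 to 51.5 RPKM in shCtrl, nearly all of it CSF1R, and to at most 2.39 RPKM in JeKo-1, while S100A8 and MPO were listed at 0 in every library. Epithelial, fibroblast and kidney cell markers summed to 11.7 to 14.2 RPKM in Granta-519 shCycD1, against 9.20 to 12.9 RPKM in shCtrl, with COL1A1 called higher (0.48). KRT18 was not called. Among those not tested, EPCAM, KRT8 and COL1A2 averaged lower in shCycD1 and DCN higher. In JeKo-1 that sum was 2.19 to 2.94 RPKM in shCycD1 and 2.16 to 2.74 RPKM in shCtrl, with KRT8 called higher (0.35). Among those not tested, EPCAM and KRT18 averaged lower in shCycD1 and COL1A1 and COL1A2 higher. Across genes, libraries of the same group had Pearson correlations between 0.98 and 0.99 (Granta-519) and of 0.97 (JeKo-1). The 14 S-phase and mitosis markers were all called lower in both lines (limma), where 18.2% (Granta-519) and 27.8% (JeKo-1) of all genes were called lower. CCNE2 passed the testing minimum in JeKo-1 only through shCtrl, so its direction there was set by the filter. Median log2 changes of the 14 were -1.37 (Granta-519) and -2.78 (JeKo-1). The largest were those of TOP2A (-1.51) and CCNA2 (-1.46) in Granta-519 and of TOP2A (-4.01) and RRM2 (-3.83) in JeKo-1. Under spike-in scaling, which sets libraries by added RNAs and put the median Granta-519 gene at 0.72, 3 of the 14 kept an adjusted p under 0.05 in Granta-519 and the median was -0.63. Few of all Granta-519 genes were called lower in that run. Most low Granta-519 values fell on whole multiples of 1 step per library, taken here as 1 read, while the depth of the JeKo-1 libraries is unknown.

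HIST1H1C, the linker histone H1.2 gene, had the largest change of the family in Granta-519, and it changed in opposite directions in the 2 lines. In Granta-519 it stood at 1511, 1301 and 1498 RPKM in the shCycD1 libraries, against 199, 207 and 196 RPKM in the shCtrl libraries. Every silenced library lay far above every control library. The means were 1437 ± 118 RPKM in shCycD1 and 200.3 ± 5.69 RPKM in shCtrl (SD, n = 3 each), a ratio of 7.17. On the log2(RPKM + 0.5) scale HIST1H1C rose by 2.84 ± 0.08 (SE, limma, Benjamini-Hochberg adjusted p = 6.08e-05). It ranked 16 from the top of 12668 genes tested in that line. The values rest on about 3600 to 4860 reads per shCycD1 library and 612 to 731 per shCtrl library. In bulk RNA a change in every cell and a change in the share of cells that make the RNA cannot be told apart.

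In JeKo-1 HIST1H1C went the other way. Its values were 144, 146 and 119 RPKM in the shCycD1 libraries and 230, 238 and 241 RPKM in the shCtrl libraries, again without overlap. Means of 136 ± 14.9 RPKM in shCycD1 and 236 ± 5.88 RPKM in shCtrl gave a ratio of 0.576. HIST1H1C fell by 0.80 ± 0.09 on the log2 scale (adjusted p = 0.00023, limma). The difference of the changes, Granta-519 minus JeKo-1, was 3.64 ± 0.12 (adjusted p = 3.63e-08, limma joint fit of 12 libraries) and ranked 7 from the top of 10653 genes tested in both lines. Both changes and the difference kept their direction and their call in every alternative run. The combination of a call higher in Granta-519 and lower in JeKo-1 was met by 121 of those 10653 genes, or 1.14%.

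**Figure D1:**
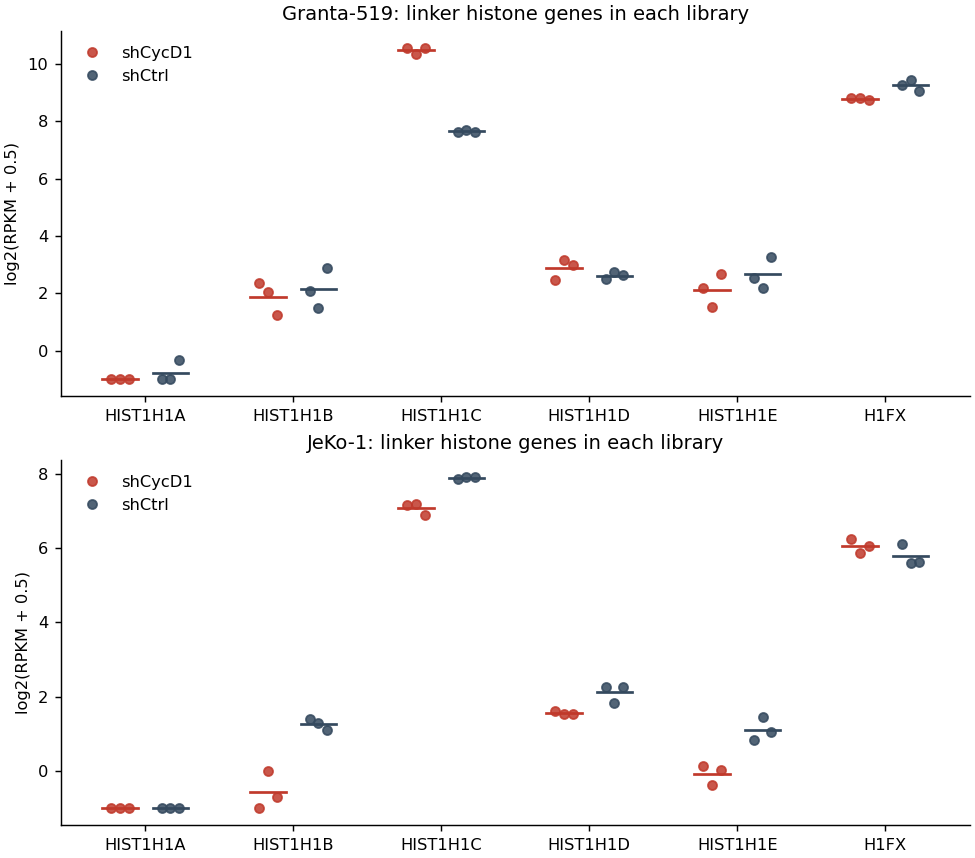
Level of each linker histone gene in every library, on the log2(RPKM + 0.5) scale, with Granta-519 above and JeKo-1 below. Points are libraries, bars are means of 3, with shCycD1 left of shCtrl for each gene. In Granta-519 the HIST1H1C points of shCycD1 lie far above those of shCtrl, in JeKo-1 below them, and HIST1H1A lies at the bottom in both lines.

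The other replication-dependent members stood at a few RPKM or less in Granta-519, and none of them passed the test there. HIST1H1A, the H1.1 gene, was listed at 0 in all 3 shCycD1 libraries and in shCtrl libraries 1 and 2, and at 0.299 RPKM, about 1 read, in shCtrl library 3. In JeKo-1 it was listed at 0 in all 6 libraries, so it was tested in neither line. HIST1H1D, the H1.3 gene, stood at 4.97, 8.49 and 7.52 RPKM in Granta-519 shCycD1 libraries, against 5.11, 6.16 and 5.71 RPKM in shCtrl libraries. These groups overlap, and the log2 change of 0.25 ± 0.19 (95% interval -0.19 to 0.70) was not called (adjusted p = 0.319, limma). It was called higher without shCycD1 library 1 (0.47, adjusted p = 0.0355) and under spike-in scaling (0.94, adjusted p = 0.0167), with adjusted p up to 0.682 in the other alternatives.

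HIST1H1E, the H1.4 gene, had 4.05, 2.35 and 5.89 RPKM in Granta-519 shCycD1 libraries and 5.32, 4.07 and 9.22 RPKM in shCtrl libraries. Its log2 change of -0.55 ± 0.36 (interval -1.40 to 0.31) did not pass the test (adjusted p = 0.270, limma). HIST1H1B, the H1.5 gene, had 4.60, 3.67 and 1.85 RPKM in shCycD1 libraries and 3.77, 2.31 and 6.80 RPKM in shCtrl libraries. Its log2 change was -0.27 ± 0.40 (interval -1.23 to 0.69, adjusted p = 0.629, limma), and it turned to 0.09 without shCtrl library 3 and to 0.06 without shCycD1 library 3. Spike-in scaling put HIST1H1E at 0.12 and HIST1H1B at 0.36, below the median gene. Groups of both genes overlap, and these values rest on few reads: about 7.02 to 31.1 per library for HIST1H1E, 6.05 to 23.2 for HIST1H1B and 17 to 25 for HIST1H1D.

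In JeKo-1 HIST1H1B, HIST1H1D and HIST1H1E, like HIST1H1C, stood lower in every shCycD1 library than in any shCtrl library, in a line where the groups did not overlap for 69.6% of all genes tested. HIST1H1D was at 2.55, 2.39 and 2.39 RPKM in shCycD1 libraries, against 4.34, 3.07 and 4.31 RPKM in shCtrl libraries, and fell by 0.57 ± 0.14 on the log2 scale (adjusted p = 0.00846, limma). HIST1H1E was at 0.608, 0.271 and 0.520 RPKM in shCycD1 libraries and at 1.28, 2.27 and 1.58 RPKM in shCtrl libraries. It fell by 1.19 ± 0.20 (adjusted p = 0.00161, limma). HIST1H1B was listed at 0, 0.499 and 0.119 RPKM in shCycD1 libraries, with 2.14, 1.96 and 1.67 RPKM in shCtrl libraries, and fell by 1.84 ± 0.24 (adjusted p = 0.000488, limma). HIST1H1B and HIST1H1E passed the testing minimum of 1 RPKM in 3 libraries only through the shCtrl group, so they had to be higher there, and their calls are a description of low genes. The size of these changes depends on the pseudocount: with 0.1 and with 1 in place of 0.5, HIST1H1B was at -3.10 and -1.30 and HIST1H1E at -1.69 and -0.88. When the JeKo-1 values were taken as log2 they fell under that minimum and were not tested. The 14 S-phase and mitosis markers moved with these genes, with a summed level of 368 to 401 RPKM in JeKo-1 shCycD1 and 2170 to 2438 RPKM in shCtrl, and their part in the changes was not tested.

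H1FX, the gene of the linker histone variant H1.10, was the most abundant member in Granta-519 control cells. It stood at 449, 447 and 428 RPKM in the shCycD1 libraries, against 611, 692 and 538 RPKM in the shCtrl libraries, without overlap. Means were 442 ± 11.8 RPKM in shCycD1 and 614 ± 77.1 RPKM in shCtrl (SD, n = 3 each), and H1FX fell by 0.47 ± 0.10 on the log2 scale (adjusted p = 0.0105, limma). Under spike-in scaling H1FX was at 0.28 (adjusted p = 0.354), below the median gene at 0.72. In JeKo-1 H1FX had 75.8, 58.4 and 66.6 RPKM in shCycD1 libraries and 68.4, 47.6 and 49.3 RPKM in shCtrl libraries. The groups overlap and the change of 0.29 ± 0.16 (interval -0.08 to 0.66) was not called (adjusted p = 0.145, limma). H1FX has the highest GC content of the 6 transcripts, 68.6%, against 53.2 to 60.1% in the others. Its JeKo-1 change was -0.36 with a GC correction (adjusted p = 0.0094), and 0.45 without shCtrl library 1 (adjusted p = 0.016). With the replicate number as a block H1FX was called higher in JeKo-1.

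**Figure D2:**
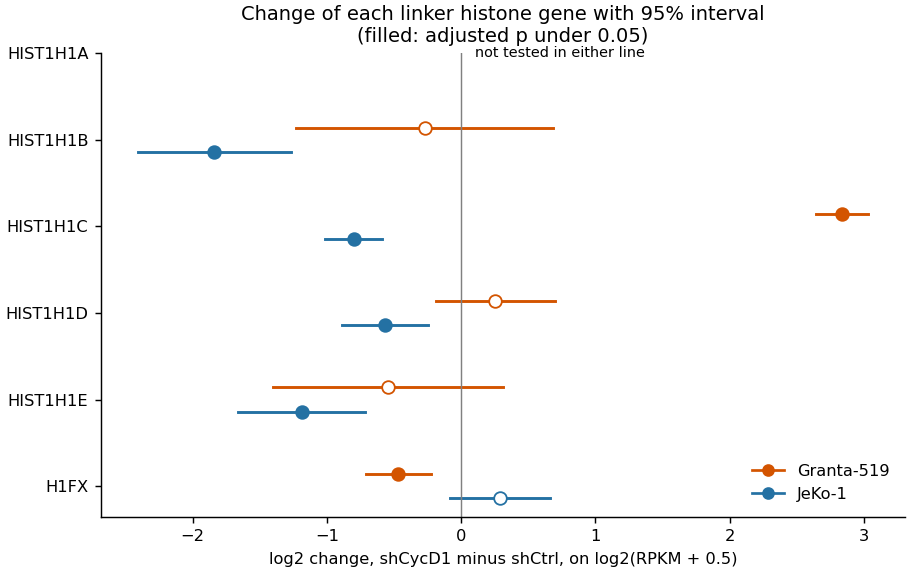
Log2 change of each linker histone gene, shCycD1 minus shCtrl, with its 95% interval from limma, in Granta-519 (orange) and JeKo-1 (blue). Filled points have an adjusted p under 0.05. HIST1H1C lies at 2.84 in Granta-519 and at -0.80 in JeKo-1, and HIST1H1A was not tested.

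Counted over the family, 5 of the 6 genes were tested in each line. In Granta-519 1 was called higher (HIST1H1C) and 1 lower (H1FX), where 22.4% of all genes tested were called higher and 18.2% lower. In JeKo-1 4 were called lower and H1FX did not pass, where 36.7% of all genes were called higher and 27.8% lower. Of these 4, HIST1H1B and HIST1H1E were tested only through their shCtrl level, so the count is a description. Groups of libraries did not overlap for HIST1H1C and H1FX in Granta-519 and for HIST1H1B, HIST1H1C, HIST1H1D and HIST1H1E in JeKo-1, against 54% and 69.6% of all genes tested. The median log2 change of the tested members was -0.27 in Granta-519 and -0.80 in JeKo-1, with 0.03 and 0.09 for all genes.

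In the joint fit 4 members had an adjusted p under 0.05 for a difference between the lines. Beside HIST1H1C, the difference (Granta-519 minus JeKo-1) was 0.82 ± 0.24 for HIST1H1D (adjusted p = 0.0185), 1.57 ± 0.51 for HIST1H1B (adjusted p = 0.0287) and -0.76 ± 0.20 for H1FX (adjusted p = 0.0103, limma joint fit). Of all genes tested in both lines 19.3% were called higher and 22.6% lower in this difference. HIST1H1B was tested in JeKo-1 only through its shCtrl level, so its difference is a description. It was 2.80 with a pseudocount of 0.1, and the call was lost with a pseudocount of 1 (1.05, adjusted p = 0.0635) and without any of 8 single libraries, with values of 1.24 to 1.56. These were shCtrl 1 and 2 and shCycD1 1 and 2 of Granta-519, and shCtrl 1 and 2 and shCycD1 1 and 3 of JeKo-1. The H1FX call was lost with the GC correction (-0.13, adjusted p = 0.412) and with spike-in scaling, where the value was 0.08. HIST1H1E (0.64 ± 0.45, interval -0.34 to 1.62, adjusted p = 0.276) was not called.

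The make-up of the linker histone RNA was described by the share of each gene in the summed RPKM of the 6 genes, which is a value per length. In Granta-519 HIST1H1C made up 76.5, 73.8 and 77.2% of the sum in the shCycD1 libraries, against 24.1, 22.7 and 25.9% in the shCtrl libraries. H1FX made up 22.8, 25.4 and 22.0% in shCycD1 libraries and 74.2, 76.0 and 71.2% in shCtrl libraries, so the order of the top pair was exchanged. The sum itself averaged 1893 ± 114 RPKM in shCycD1 and 830.3 ± 78.1 RPKM in shCtrl (SD, n = 3 each).

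In JeKo-1 HIST1H1C led in both groups, with 64.5, 70.3 and 63.1% in shCycD1 libraries and 75.1, 81.3 and 80.9% in shCtrl libraries. H1FX held 34.0, 28.2 and 35.3% in shCycD1 libraries and 22.4, 16.3 and 16.6% in shCtrl libraries. The summed RPKM averaged 206 ± 17.1 in shCycD1 and 299 ± 6.48 in shCtrl. These shares are a description and were not tested.

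**Figure D3:**
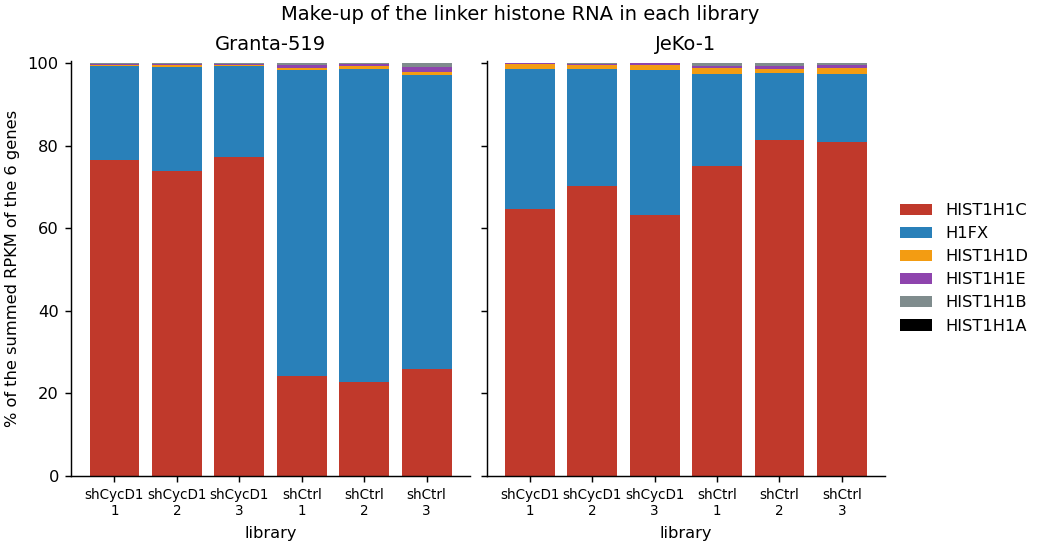
Share of each linker histone gene in the summed RPKM of the 6 genes, in percent, in each library, with shCycD1 left of shCtrl. In Granta-519 HIST1H1C (red) fills 73.8 to 77.2% of the shCycD1 bars and 22.7 to 25.9% of the shCtrl bars, and H1FX (blue) fills most of the rest.

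The order of levels within each group followed the same split between abundant and scarce members. In Granta-519 shCycD1 the order was HIST1H1C, H1FX, HIST1H1D, HIST1H1E, HIST1H1B and HIST1H1A, and the ranges of HIST1H1D to HIST1H1B overlapped from neighbour to neighbour. In Granta-519 shCtrl H1FX came before HIST1H1C, followed by HIST1H1E, HIST1H1D and HIST1H1B with overlapping ranges. In JeKo-1 shCycD1 the order HIST1H1C, H1FX and HIST1H1D had no overlap between neighbours, while HIST1H1E and HIST1H1B overlapped. In JeKo-1 shCtrl the order began in the same way, and HIST1H1B and HIST1H1E overlapped. Levels were not compared between the tables, which were scaled separately.

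Most replication-dependent core histone genes were called higher in Granta-519, as HIST1H1C was. Core histones are the H2A, H2B, H3 and H4 proteins of the nucleosome itself. The 67 genes of this list were taken by symbol alone and can include pseudogenes, such as HIST1H2APS1. Of the 67, 56 were tested in Granta-519, with 36 called higher and 7 lower (all genes: 22.4% higher and 18.2% lower). Their median log2 change was 1.19. In JeKo-1 55 were tested, with 8 called higher and 21 lower (all genes: 36.7% higher and 27.8% lower) and a median of -0.24. With the GC correction 11 were called higher and 32 lower, with a median of -0.66 against 0.099 for all genes. The shares of all genes given here are those without that correction. In JeKo-1 7 of the 21 passed the testing minimum only through shCtrl, and in Granta-519 3 of the 36 only through shCycD1, so their direction was set by the filter. Under spike-in scaling 42 were called higher and 3 lower in Granta-519, with a median of 1.88 against 0.72 for all genes. Most of all genes tested were called higher in that run. Among the 52 tested in both lines, 8 were called higher in Granta-519 and lower in JeKo-1 as HIST1H1C was, against 1.14% of all genes. Of these 8, HIST2H4A and HIST2H4B had identical JeKo-1 values, so they are not separate measurements there. A further 7 were called higher in both and 5 lower in both. The share of all genes called alike in both lines was not computed, so these counts are not read as a result. None of the 6 H1 genes was called in the same direction in both lines, so the rule for naming genes of like pattern named none. With the GC correction H1FX was called lower in both (-0.49 in Granta-519 and -0.36 in JeKo-1).

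The genes nearest to HIST1H1C were looked up after its values had been seen. By root mean square distance over the 12 libraries (log2 values minus the shCtrl mean of the line, 10653 genes) they were HIST2H2AA3 (distance 0.33, changes of 2.61 in Granta-519 and -0.24 in JeKo-1), HIST2H4B (0.33, 2.27 and -0.77) and HIST2H2AA4 (0.34, 2.55 and -0.24). All 3 are core histone genes outside the chromosome 6 cluster, and HIST2H2AA3 and HIST2H2AA4 are near-identical copies that can share reads. HIST2H4B had the same JeKo-1 values as HIST2H4A. Nearest to H1FX, looked up in the same way, were RAD9A, DECR2 and FLOT1, at distances of 0.068, 0.096 and 0.097. For the H1 genes themselves, 0% of the 50-base windows of each GENCODE v29 transcript occurred in a transcript of any other gene, although the models of HIST1H1A to HIST1H1D hold coding sequence alone.

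**Figure D4:**
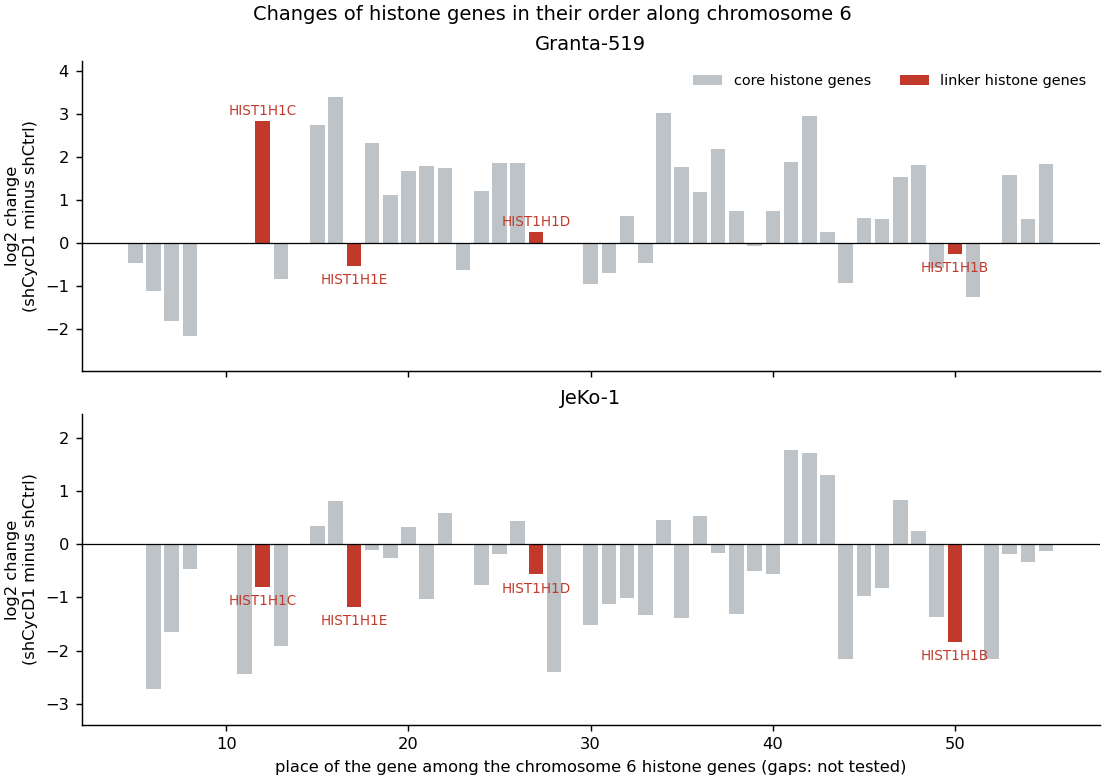
Log2 change, shCycD1 minus shCtrl, of the histone genes of chromosome 6 in their order along the chromosome (RefSeq), with linker histone genes in red and core histone genes in grey. HIST1H1E stands at -0.55 among core genes above 1 in Granta-519, and HIST1H1C at 2.84 beside core genes that were lower or not tested.

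The genes on either side of each H1 gene in the cluster are given as values, named after these had been seen, and no difference between neighbours was tested. In Granta-519 HIST1H1E (-0.55, not called) lies between HIST1H2AC, which rose by 3.39 ± 0.22 (adjusted p = 0.000187, limma), and HIST1H2BE, which rose by 2.31 ± 0.28 (adjusted p = 0.00112). HIST1H1C (2.84) lies near HIST1H4C, which fell by 0.85 ± 0.27 (adjusted p = 0.0404). HIST1H1D (0.25, not called) follows HIST1H3E, which rose by 1.85 ± 0.28 (adjusted p = 0.00265). HIST1H1B (-0.27, not called) lies between HIST1H2AL and HIST1H3I, at -0.60 ± 0.14 and -1.26 ± 0.41 (adjusted p of 0.0154 and 0.0451, limma).

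In JeKo-1, where 27.8% of all genes were called lower, several neighbours were called in the direction of their H1 gene. HIST1H3C (-2.44) and HIST1H4C (-1.92) lie beside or near HIST1H1C (-0.80), HIST1H4F (-2.40) beside HIST1H1D (-0.57), and HIST1H2AL (-1.36) beside HIST1H1B (-1.84). HIST1H4F, HIST1H1B and HIST1H1E passed the testing minimum only through shCtrl, so their direction was set by the filter. HIST1H3E, on the other side of HIST1H1D, was not called (0.44). HIST1H1E (-1.19) lies between HIST1H2AC, which was called higher (0.82), and HIST1H2BE, which was not called (-0.10).

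Most genes whose proteins handle, modify or compete with H1 were called lower in both lines, but in Granta-519 this did not hold under spike-in scaling. Of 17 such genes 15 were tested in Granta-519, where 13 were called lower and the other 2 did not pass (median log2 change -0.87), against 18.2% of all genes called lower. In JeKo-1 16 were tested, with 1 called higher and 13 lower (median -1.19), against 36.7% and 27.8% of all genes. Under spike-in scaling 1 was called lower in Granta-519 (median -0.12, with all 15 below the median of all genes) and 11 in JeKo-1. In that run few of all genes were called lower in Granta-519, and fewer in JeKo-1 than without the scaling. NASP, a chaperone of H1 and of core histones, had log2 changes of -1.11 in Granta-519 (adjusted p = 0.000305, limma) and -1.78 in JeKo-1 (adjusted p = 2.26e-05). CDK1 and CDK2, kinases that phosphorylate H1 during the cycle, had changes of -1.38 and -1.35 in Granta-519, with -3.94 and -1.91 in JeKo-1. HMGB1 and HMGB2, which compete with H1 for linker DNA, stood at -1.01 and -1.47 in Granta-519, with -1.90 and -3.58 in JeKo-1. HMGN2, a nucleosome binder that loosens H1, was at -1.11 in Granta-519 and -2.31 in JeKo-1. L3MBTL1, a reader of methylated H1, averaged 1.57 ± 0.0630 RPKM in JeKo-1 shCycD1 and 0.611 ± 0.152 RPKM in shCtrl (SD, n = 3 each). It passed the testing minimum only through shCycD1, so its call there (0.91) is a description, and it was not tested in Granta-519.

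Genes that make and process histone mRNA were mostly called lower, again with the exception of Granta-519 under spike-in scaling. Of 11 tested, 7 were called lower in Granta-519 and the other 4 did not pass (median -0.37), and 8 were called lower in JeKo-1 and the other 3 did not pass (median -0.76). Of all genes 18.2% were called lower in Granta-519 and 27.8% in JeKo-1. With spike-in scaling 2 of the 11 were called higher in Granta-519, in a run where most of all genes tested were called higher. Their median was then 0.35, below the 0.72 of all genes. SLBP, the protein that binds the histone stem-loop, had log2 changes of -0.71 in Granta-519 and -1.45 in JeKo-1. CASP8AP2, a factor of histone gene transcription, stood at -0.73 and -1.27, and CPSF3, the gene of the cleavage nuclease, at -0.62 and -1.68. Of 9 replacement core histone variants tested, 9 were called lower in Granta-519 (median -0.71) and 8 in JeKo-1 (median -1.08). Under spike-in scaling 1 of the 9 was called lower in Granta-519, in a run where few of all genes were. Without that scaling the largest changes of these variants were those of CENPA, the centromeric H3 (-1.51 and -3.67), and H2AFX, the H2A variant phosphorylated at DNA breaks (-1.29 and -2.11).

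**Figure D5:**
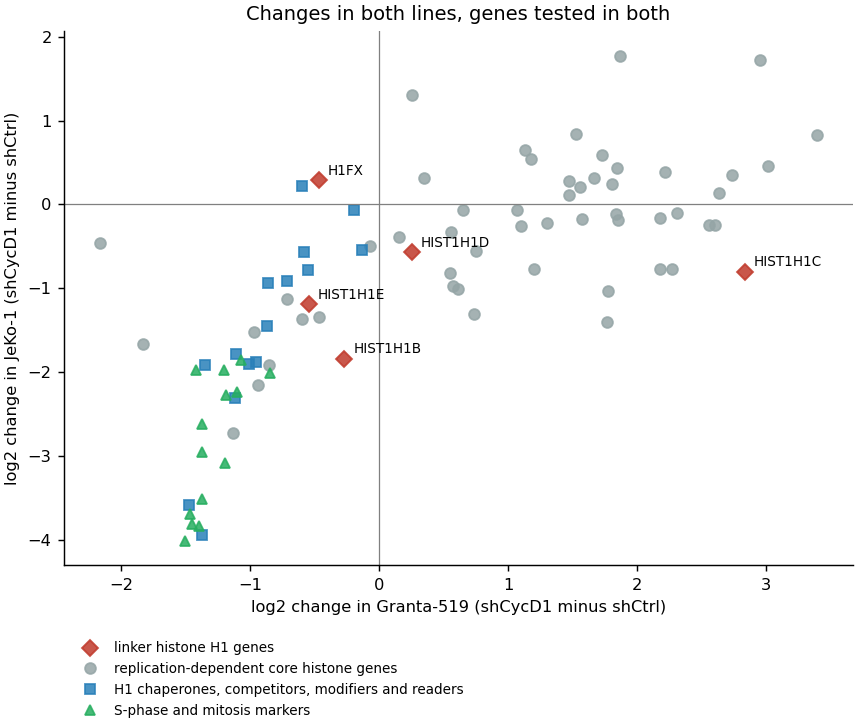
Log2 change in JeKo-1 against log2 change in Granta-519 (both shCycD1 minus shCtrl) for genes tested in both lines. Diamonds are linker histone genes, circles core histone genes, squares H1 partners and triangles S-phase and mitosis markers. Markers and most partners lie at the lower left, and HIST1H1C lies at the lower right, at 2.84 and -0.80.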

How the data were processed

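RNA of 12 libraries, 3 per group, was sequenced by the authors. Tools listed in the submitters' processing notes are TopHat2 2.1.1, FastQC and limma 3.9, and the builds listed are hg19 and GRCh37, without saying what each was for. The read counter and annotation were not stated. The authors deposited 1 RPKM table per line, on what is taken here to be a natural log (ln) scale of RPKM + 1. In Granta-519 this base gives whole steps (79.4 to 81.8% of low values whole within 0.1, after multiplying by the gene's span), and in JeKo-1 it is inferred. The 92 spike-in RNAs of each table were left out of the tests.

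Values were taken out of the log, and the row with the highest mean was kept per symbol. Using R 4.3.3, limma 3.58.1 with a trended empirical Bayes step was fitted per line on log2(RPKM + 0.5) for genes at 1 RPKM or more in at least 3 of 6 libraries (Granta-519: 12668 genes, JeKo-1: 11866), and jointly for the difference between the lines (10653 genes). This scale understates changes of low genes. Benjamini-Hochberg adjusted p under 0.05 over all genes tested was called. p-values measure the spread between these libraries. The code was tested on simulated data. GC content could be matched for 91.1 and 91.7% of tested genes.

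The members and lists were chosen with earlier results of these data known. A gene of the family is not reported here. Named were the 6 H1 genes, CCND1, the 2 largest called changes per direction and line of each list, and H1 partners past 1 in both lines. The core histone list was selected by symbol after the fixed lists. Beside the rule, HIST1H1T, H1FX-AS1, adjacent genes and nearest patterns were named after values were seen. Alternatives were other pseudocounts, no filter, other scalings, a GC correction, a replicate block, summed rows, a log2 reading of the JeKo-1 table and leaving out each library. Sequences are RefSeq promoters (GRCh38.p14) matched through symbols and synonyms. Gene order was taken from the same build, and no coordinates of the deposited tables are given.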

Additional observations from a re-analysis of the deposited data

Results flagged for a closer look

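Results are listed here because the change of a member differed between the lines in the joint limma fit (Granta-519 minus JeKo-1, log2 scale). HIST1H1C differed by 3.64, with a change of 2.84 in Granta-519 and of -0.80 in JeKo-1. HIST1H1B, tested in JeKo-1 only through its shCtrl level, differed by 1.57, at -0.27 in Granta-519 and -1.84 in JeKo-1, with about 6.05 to 23.2 reads per Granta-519 library. HIST1H1D differed by 0.822, at 0.25 in Granta-519 and -0.57 in JeKo-1. H1FX differed by -0.756, at -0.47 (Granta-519) and 0.29 (JeKo-1). The GC content of its transcript is 68.6%. The S-phase and mitosis markers, with median changes of -1.37 (Granta-519) and -2.78 (JeKo-1), moved with HIST1H1B and HIST1H1D in JeKo-1, and their part in these differences was not tested. The same tables gave 2053 genes called higher and 2410 called lower in this difference.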

How the results depend on the processing

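HIST1H1C kept its direction and its call in both lines and in the difference under every alternative, at 2.80 to 3.58 (Granta-519), -1.07 to -0.56 (JeKo-1) and 3.40 to 4.47 for the difference. In JeKo-1 HIST1H1D kept its call in all 16 alternatives, and HIST1H1B and HIST1H1E in the 15 that tested them. Spike-in scaling gave 6587 genes called higher and 109 lower in Granta-519, then 1957 higher and 1762 lower in JeKo-1, and 3270 and 145 in the difference. H1 genes called were then 2 higher and 0 lower in Granta-519 and 4 higher and 0 lower in the difference. The Granta-519 changes of HIST1H1B (0.36), HIST1H1E (0.12) and H1FX (0.28) and the H1FX difference (0.080) turned positive, against a median of all genes of 0.72 in Granta-519. The replicate number did not pair the Granta-519 libraries: shCycD1 and shCtrl libraries of the same number correlated at -0.12 to 0.03 (deviations from group means). In JeKo-1 they correlated at 0.09 to 0.19, and every library correlated best with its own number. Whether the JeKo-1 libraries were paired is not stated in the labels. With the replicate block 2 H1 genes were called lower in Granta-519 (HIST1H1E added, adjusted p = 0.0205) and 1 higher in JeKo-1 (H1FX, adjusted p = 0.0143), and the HIST1H1B difference lost its call (adjusted p = 0.0582). With the GC correction H1FX turned to -0.36 in JeKo-1 and 0 H1 genes were called lower in the difference. The replicate block with GC correction gave the same value for H1FX, 2 H1 genes called lower in Granta-519, and 4 higher and 0 lower in the difference. Taking the JeKo-1 values as log2, 2 H1 genes were called lower there, because HIST1H1B and HIST1H1E fell under the testing minimum. Leaving out single libraries gave 1 to 2 H1 genes called higher in Granta-519 and 0 to 1 in JeKo-1, with HIST1H1B at -0.60 to 0.089 in Granta-519. The cause of these shifts was not tested. HIST1H1A, HIST1H1B, HIST1H1D and HIST1H1E rest on at most 31.1 reads per library in Granta-519, and depth is unknown in JeKo-1. Whether depth limits their calls was not tested.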

Other observations

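Germline linker histone genes were near or under the testing minimum. HILS1 averaged 2.53 ± 1.49 RPKM in Granta-519 shCycD1 and 4.02 ± 0.662 RPKM in shCtrl (SD, n = 3 each), a log2 change of -0.68 that was not called (adjusted p = 0.148, limma), and HIST1H1T, the testis H1 gene of the chromosome 6 cluster, stood at 0 to 1.34 RPKM in shCycD1 and 0 to 0.548 RPKM in shCtrl of that line. In JeKo-1 HIST1H1T stood at 0.259 to 0.312 RPKM in shCycD1 libraries and 0 to 0.0937 RPKM in shCtrl libraries, without overlap and under the minimum for testing. Groups did not overlap for 69.6% of all genes tested in that line, and HIST1H1T was named after its values had been seen.

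H1FX-AS1, an antisense gene that RefSeq (GRCh38.p14) annotates as overlapping H1FX, rose in JeKo-1, where 36.7% of all genes tested were called higher. It had 2.40 to 3.17 RPKM in shCycD1 libraries and 0.894 to 1.28 RPKM in shCtrl libraries, a log2 change of 1.03 ± 0.14 (adjusted p = 0.000507, limma). In Granta-519 it had 1.48 to 1.73 RPKM in shCycD1 libraries and 1.34 to 2.25 RPKM in shCtrl libraries, with a change of -0.19 (adjusted p = 0.403). Whether the authors' counting used strand is not stated, so reads of the overlap cannot be assigned to either gene. This gene was looked up after the values of H1FX had been seen.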
